A study of Mus musculus with 4 samples.

Results

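An untreated allograft tumour of NF2-deficient mouse Schwann cells was compared with the same cell line kept untreated in a culture dish, to describe how transcript levels differ between the cells in culture and a piece of tumour from a mouse. Genes were joined by identifier over the 2 deposited tables. They were kept where both tables gave the status OK and the level reached 1 FPKM (fragments scaled to the length of the transcript and to all mapped fragments, so a level per length) in at least 1 of the libraries, which left 15235 of 35604 genes from 2 of the 4 libraries. Both columns were rescaled to the same upper quartile, and the difference is log2(FPKM + 1) of the tumour minus that of the culture. It is positive where the tumour was higher, and the added 1 makes it understate differences of genes with low levels. Levels are printed in FPKM as deposited and come from tables normalized separately. Each side had 1 library, so there was no error between replicates and no test was run, and the account rests on differences of at least 4-fold (2 on the log2 scale) and on ranks. Smaller differences are given as values only.

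All libraries came from ESC-FC1801, a single line of mouse embryonic Schwann cells on the FVB/N background. Its Nf2Flox/Flox alleles had been recombined in the dish with an adenovirus carrying Cre (Ad-Cre), so the cells of the line share the NF2-/- state on both sides. That state does not extend to host cells in the tumour. The cultured cells received DMSO for 24 h, and the line was kept in serum-free N2 medium with neuregulin-β1, forskolin, gentamycin and fungizone. The tumour came from a mouse bearing ESC-FC1801 cells and given vehicle 3 times a week for 4 weeks. The other libraries, used here only as a second tumour and a second culture, were exposed to NXD30001, which the series names as an inhibitor of the chaperone HSP90: the tumour at 100 mg/kg on the vehicle's schedule, the culture at 1 µM for 24 h. These exposures differ in dose and time. The host's age and sex, the tumour's site and whether animals were pooled are not given in the labels. The sample type field names cultured cells for every library, while the title, source and treatment fields place 2 of them in mice, and the latter were followed. A tumour piece also holds cells of the host, and in such bulk RNA fewer cells of a type cannot be told apart from less RNA per cell.

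Schwann cells ensheath the axons of peripheral nerves. The transcription factor Sox10 maintains their identity and Egr2 switches on the myelin genes, while injury returns them to an immature, dividing state marked by Jun and Ngfr. Neuregulin acts on the receptor pair Erbb2 and Erbb3 and forskolin raises cyclic AMP, and the pair of agents is widely used to keep Schwann cells dividing in a dish. Merlin, the product of Nf2, ties membrane receptors to the cortical actin skeleton and restrains growth signals such as those carried by YAP. Schwannomas that form in its absence are known to hold many macrophages.

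Of the 15235 genes, 3723 were at least 4-fold higher in the tumour, which is 24.4% of the genes compared, and 2145 were at least 4-fold higher in culture, which is 14.1%. The median difference of all genes was 0.48. Another scaling shifts the differences together, and this median was 0.96 with no rescaling, 0.54 by median ratios and 0.77 with equal totals over protein-coding genes. Equal totals over all rows gave 3.29, a scaling in which 1 row held 68.3% of the culture's total. In culture 1667 of the compared genes were listed at 0 and in the tumour 410. Such a gene passed the filter through the other library alone, so its direction was fixed. Its difference, and its place in counts of at least 4-fold, depend on the added 1. The authors' own fold and test statistic imply an error for each gene, which covers no spread between mice or dishes. At 30 to 100 FPKM its median was 0.30 on the log2 scale in the tumour table and 0.69 in the culture table, which gives 0.54 for a tumour against culture difference if the libraries of a table share their error equally. At 1 to 3 FPKM the latter was 0.90.

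**Figure D1:**
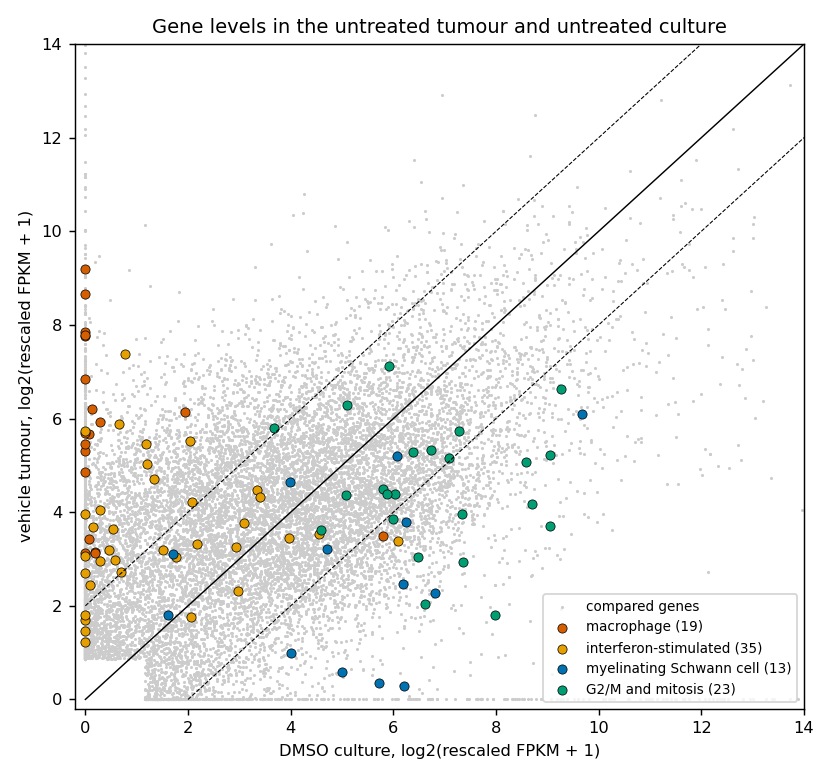
Level of each gene in the DMSO culture (x) and the vehicle tumour (y), both as log2(rescaled FPKM + 1). Grey points are the compared genes, coloured points the members of 4 gene lists with the number compared in brackets, the solid line equality and the dashed lines a 4-fold difference. The 48 genes at 14 or more on either axis are not drawn. Macrophage genes lie along the left edge, where the culture is at or near 0, and most mitotic genes lie below the line of equality.

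The differences followed the base composition of the transcripts. Over 11663 protein-coding genes the GC content of the longest coding transcript in GENCODE M21 had a Spearman correlation of 0.63 with the difference, and in the treated pair of libraries it was 0.61 over 11605 genes. These are correlations across genes within the same libraries, and genes are not independent replicates. In the lowest decile of GC content (32.8% to 41.8%) the median difference was -1.73, and in the highest (58.3% to 76.5%) it was 2.79. The median level of the same genes went from 26.6 FPKM to 0.962 FPKM in the DMSO culture and from 18.5 FPKM to 0.913 FPKM in the NXD30001 culture. In the tumours it went from 10.3 FPKM to 22.5 FPKM with vehicle and from 10.5 FPKM to 26 FPKM with NXD30001. The cultures thus differed more along GC content than the tumours did. In the highest decile 67.4% of the genes were at least 4-fold higher in the tumour, against 5.23% in the lowest. A second measure, the GC-centred difference, was therefore taken as the difference minus the median of protein-coding genes in the same of 20 bins of GC content. By it 1687 of 14190 genes (11.9%) were at least 4-fold higher in the tumour and 1546 (10.9%) in culture, and 1280 and 976 genes passed 4-fold by both measures. Its median over all genes was -0.01. A list whose share of such genes is near these percentages does not stand apart from all genes. Whether the pattern lies in the libraries or in the cells was not tested.

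**Figure D2:**
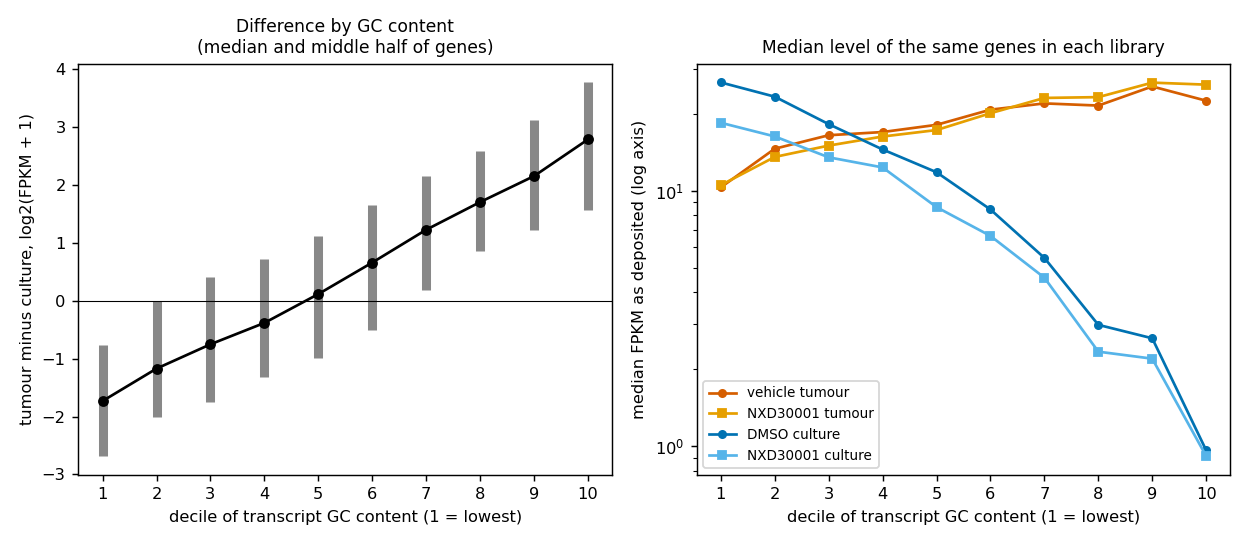
Left: median difference (points) and middle 50% of genes (bars) in deciles of transcript GC content, tumour minus culture on the log2(FPKM + 1) scale. Right: median level of the same genes in each of the 4 libraries, in FPKM as deposited on a log axis. The medians rise from -1.73 to 2.79 on the left, and on the right both cultures drop below 1 FPKM in the highest decile while both tumours stay above 20 FPKM.

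Marker genes of host cells were higher in the tumour, macrophage genes above all. Of 19 macrophage markers, all of which were compared, 18 were at least 4-fold higher in the tumour and 1 in culture, against 24.4% and 14.1% of all genes. After GC-centring 18 and 0 were so, against 11.9% and 10.9%, and the list had a median difference of 5.59 (GC-centred 5.32). The summed level of the list was 2709.9 FPKM in the vehicle tumour and 2104 FPKM in the NXD30001 tumour, against 47.5 and 7.95 FPKM in the DMSO and NXD30001 cultures. Lyz2, the lysozyme of macrophages, stood at 712 FPKM in the vehicle tumour and 558 FPKM in the treated one and was listed at 0 in both cultures. C1qa, a chain of the complement component C1q, was at 491 and 434 FPKM in the tumours and listed at 0 in both cultures. Csf1r, the receptor that keeps macrophages alive, was at 89.5 and 57.5 FPKM in the tumours and 0.0787 and 0.0942 FPKM in the cultures. Both tumours lay above both cultures for each of these 3 genes. Of the 19 markers 11 were listed at 0 in the DMSO culture, so the filter fixed their direction. Cd68, a lysosomal protein of macrophages, was the marker with the most signal in culture after Mertk, at 2.32 FPKM against 85.4 FPKM in the tumour. Mertk, a receptor for apoptotic cells, went the other way with 12.6 FPKM in the tumour and 44.6 FPKM in the culture (difference -2.30, GC-centred -1.99), but in the treated pair it was at 21.6 and 5.79 FPKM.

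Vessel and connective tissue markers were also higher in the tumour. Of all genes, 24.4% were at least 4-fold higher in the tumour (11.9% after GC-centring). Of 17 endothelial markers 16 were compared, 12 were at least 4-fold higher in the tumour (5 after GC-centring), and the median difference was 2.57 (GC-centred 1.21). Their summed level was 185 and 100.3 FPKM in the vehicle and NXD30001 tumours and 2.65 and 2.77 FPKM in the cultures. In the DMSO culture 11 of the 16 endothelial markers were listed at 0, so the filter fixed their direction. It did so too for 3 fibroblast and 3 mural markers. Cdh5, the cadherin of endothelial junctions, was at 17.9 and 5.84 FPKM in the tumours and listed at 0 in both cultures, and Pecam1, an adhesion molecule of the same junctions, was at 24.8 and 10.5 FPKM against 0.0251 and 0 FPKM. Of 11 fibroblast markers 7 were at least 4-fold higher in the tumour (6 after GC-centring), with a median of 2.85 (GC-centred 2.94) and a summed level of 4217 and 3467 FPKM in the vehicle and NXD30001 tumours and 1295 and 1129.5 FPKM in the cultures. The fibroblast list divided by gene. The small proteoglycan Dcn was at 345 FPKM in the tumour and 0.0459 FPKM in culture and Mfap5, a protein of elastic microfibrils, at 82.5 FPKM and 0. The collagen I and III chains, by contrast, were plentiful on both sides: Col1a1 had 1576 and 346 FPKM (difference 1.60, GC-centred -1.03) and Col3a1 1141 and 653 FPKM (difference 0.22, GC-centred -0.91). Of 12 mural cell markers 8 were compared and 3 were at least 4-fold higher in the tumour (2 after GC-centring), with a median of 1.64 (GC-centred 0.36). Acta2, smooth muscle actin, led them with 82.0 FPKM against 0.0645 FPKM, while Myh11 and Des, which mark mature smooth muscle, stayed under 1 FPKM in all libraries.

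For the remaining cell types few markers were compared. A member listed at 0 in culture passed the filter through the tumour alone, so its direction was fixed. Of all genes, 24.4% were at least 4-fold higher in the tumour and 14.1% in culture (11.9% and 10.9% after GC-centring). Lymphocyte markers were nearly absent. Among 13 T cell markers 2 were compared, with 1 at least 4-fold higher in the tumour and 0 after GC-centring, and Cd3e, Cd2 and Cd8a were listed at 0 in all 4 libraries. Of 9 B and plasma cell markers none reached 1 FPKM in either untreated library, and of 8 NK cell markers only Gzma did, with 1.48 FPKM in the vehicle tumour (difference 1.14, GC-centred 2.16). Neutrophil markers were low, with 3 of 12 compared and 1 at least 4-fold higher in the tumour (2 after GC-centring). S100a8 stood at 2.18 FPKM in the vehicle tumour, 21.9 FPKM in the NXD30001 tumour and 0 in both cultures, with a difference of 1.47 in the untreated pair (GC-centred 2.29). Of 10 mast cell markers 5 were compared and 1 was at least 4-fold higher in the tumour (0 after GC-centring), and the protease Tpsb2 was at 3.13 FPKM in the vehicle tumour and listed at 0 in culture. Of 10 dendritic cell markers 2 were compared, and 1 was at least 4-fold higher in the tumour (0 after GC-centring). The transcription factor Irf8, which macrophages also express, was at 12.3 FPKM in the tumour and 0 in culture (GC-centred 1.59), while Zbtb46, a factor of classical dendritic cells, was within 4-fold (6.77 and 5.46 FPKM). Lymphatic endothelium had 3 of 5 markers compared and 2 at least 4-fold higher in the tumour by either measure, led by the hyaluronan receptor Lyve1, also a gene of tissue macrophages, at 23.2 FPKM and 0. Platelet markers had 4 of 6 compared and 2 at least 4-fold higher in the tumour (1 after GC-centring). The platelet chemokine Pf4 was at 55.6 FPKM and 0, the integrin chain Itgb3 was within 4-fold (6.65 and 7.90 FPKM), and Ppbp and Gp9 were under 1 FPKM in both untreated libraries. Of 10 erythroid genes 5 were compared and 4 were at least 4-fold higher in the tumour by either measure. Haemoglobin transcripts separated the tumours from each other: Hba-a1 was at 110.0 FPKM in the vehicle tumour and listed at 0 in the NXD30001 tumour and both cultures, and Hbb-b1 was at 33.8, 0.164, 0 and 0 FPKM. Of 10 adipocyte markers 3 were compared and 1 was at least 4-fold higher in the tumour by either measure. Fabp4, a fatty acid carrier of adipocytes that endothelial cells and macrophages also make, had 65.8 FPKM in the vehicle tumour, while the adipocyte hormone Adipoq was under 1 FPKM. Among 15 skeletal muscle markers 4 were compared and 1 was at least 4-fold higher in the tumour (0 after GC-centring), and Ckm was listed at 0 in all 4 libraries. Of 11 keratinocyte markers 2 were compared, with 1 at least 4-fold higher in culture by either measure, and Krt5 and Krt14 were at or near 0 throughout. Neuronal markers divided, with 3 of 6 compared at least 4-fold higher in the tumour and 2 in culture (1 and 2 after GC-centring). Stmn2, a tubulin-binding protein of growing axons, was at 57.9 FPKM in the vehicle tumour, 105 FPKM in the NXD30001 tumour and 0.0421 and 0.324 FPKM in the cultures, whereas Syp, synaptophysin, was at 0.344 FPKM in the tumour and 18.0 FPKM in culture. Of 6 melanocyte markers the transcription factor Mitf alone was compared, at 7.37 and 0.191 FPKM.

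Schwann identity genes were present on both sides. Sox10 (chr15:78985513-78994916, mm9) was at 47.0 and 139.8 FPKM in the vehicle and NXD30001 tumours and 8.42 and 4.40 FPKM in the DMSO and NXD30001 cultures. Erbb3, the neuregulin receptor, was at 12.4, 26.3, 18.1 and 7.17 FPKM in the same order, and the neurotrophin receptor Ngfr at 18.1, 52.2, 22.5 and 7.68 FPKM. In the untreated pair all 3 were within 4-fold, with differences of 1.80, -1.05 and -0.85. Transcript GC is high for Sox10 (61.8%) and Ngfr (58.6%), and after GC-centring the values were -1.12, -1.88 and -3.49, which puts Ngfr past 4-fold on the culture side. S100b, a common Schwann marker, was under 1 FPKM on both sides (0.305 and 0.563 FPKM), and Fabp7, a marker of Schwann precursors, was listed at 0 in all libraries. Of 14 transcription factors of the lineage 13 were compared, with a median difference of 0.53 (GC-centred -0.23) and 1 past 4-fold in each direction: Foxd3, a neural crest factor, with 24.7 FPKM in the tumour and 3.40 FPKM in culture, and Egr2. After GC-centring, which was possible for 11 of the 13, Egr2 alone was past 4-fold (-3.82) and Foxd3 stood at -0.89. All genes had 24.4% past 4-fold in the tumour and 14.1% in culture (11.9% and 10.9% after GC-centring). Sox2, which holds Schwann cells immature, was within 4-fold (30.2 and 20.1 FPKM, difference 0.01), as were Pax3 (-0.26) and Ets1 (-0.39).

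Myelin genes lay on the culture side in the untreated pair. In the treated pair they divided, with 6 members higher in the tumour and 7 in culture. Of 19 members of the myelinating list 13 were compared. No member was at least 4-fold higher in the tumour and 8 were at least 4-fold higher in culture, and after centring 10 of the 12 members with a GC value were so, against 14.1% and 10.9% of all genes. The median difference was -2.997 (GC-centred -3.14, and 0.12 with equal totals over all rows, where the median of all genes was 3.29). Pmp22, a membrane protein of compact myelin whose dosage causes inherited neuropathies, was at 82.9 and 196 FPKM in the tumours and 669.9 and 2777 FPKM in the cultures. Pmp2, the fatty acid carrier of myelin, was at 0.336 and 2.11 FPKM in the tumours and 42.3 and 78.0 FPKM in the cultures, with differences of -3.58 for Pmp22 and -5.37 for Pmp2 in the untreated pair. Both cultures exceeded both tumours for each of these genes. Ugt8a, the enzyme that makes galactosylceramide, had 0.617 FPKM in the tumour and 25.4 FPKM in culture, and the raft protein Mal 5.52 and 59.0 FPKM. Egr2 (Krox20, chr10:66998223-67004936, mm9), the transcription factor that drives this group, was at 1.23 FPKM in the tumour and 12.2 FPKM in culture, yet at 11.4 and 0.924 FPKM in the treated pair. Gjc3, a connexin of Schwann cells, was likewise higher in the untreated culture (-4.54) and not in the treated pair (0.65). Members within 4-fold in the untreated pair were Mbp (29.3 and 12.1 FPKM), Prx, which links the Schwann cell to its basal lamina (3.05 and 1.68 FPKM, GC-centred -2.07), and Pou3f1, the factor that precedes Egr2 (9.35 and 1.86 FPKM). Mag, Gjb1 and Ncmap, products of mature myelinating cells, were under 1 FPKM on both sides.

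Genes of the immature and repair Schwann cell had a median of -0.54 (GC-centred -0.59) over 12 compared of 18, with 1 past 4-fold in each direction by either measure, though not the same genes. All genes had 24.4% past 4-fold in the tumour and 14.1% in culture (11.9% and 10.9% after GC-centring). Artn, a ligand of the Ret receptor family, was at 29.6 FPKM in the tumour and 3.10 FPKM in culture, a difference of 2.39 that was -0.53 after GC-centring. Btc, betacellulin, a ligand of the epidermal growth factor receptor, was at 1.502 and 7.86 FPKM (difference -2.25, GC-centred -0.66). After centring the members past 4-fold were Bdnf, a neurotrophin (4.98 and 0.960 FPKM, 2.82), on the tumour side and Ngfr (-3.49) on the culture side. Ncam1 (75.3 and 71.1 FPKM) and Cdh2 (44.4 and 45.2 FPKM), adhesion molecules of immature Schwann cells, were within 4-fold. In the treated pair the median of this list was 1.02.

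**Figure D3:**
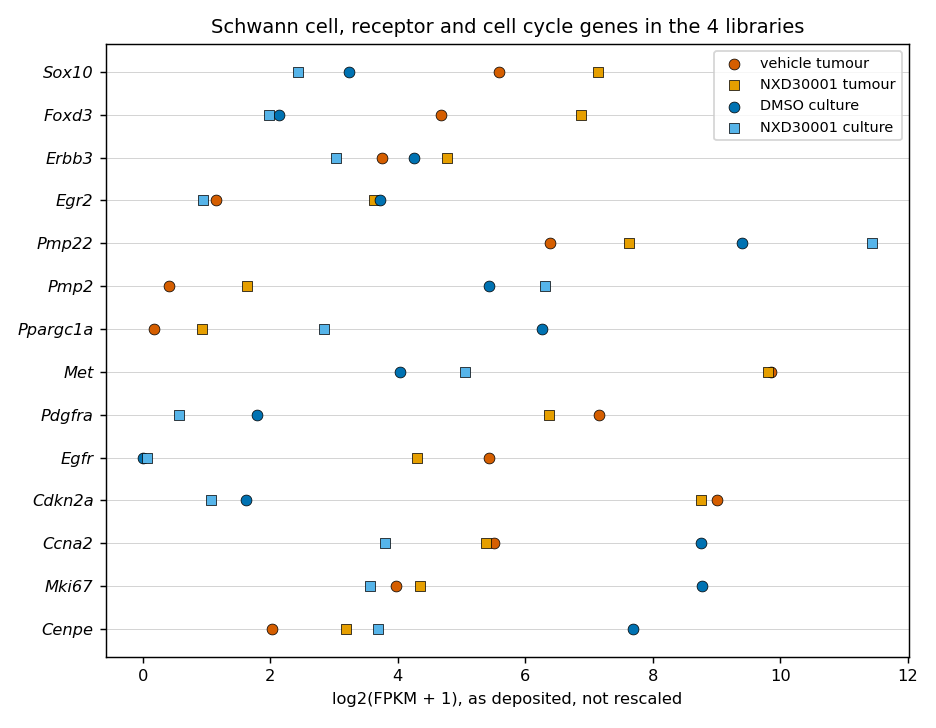
Level of 14 genes in each library, log2(FPKM + 1) of the deposited values without rescaling. Circles are untreated libraries and squares NXD30001 libraries, orange tones tumours and blue tones cultures. Pmp2 and Pmp22 have both cultures on the right and Met, Pdgfra and Cdkn2a both tumours, whereas Mki67, Cenpe and Ccna2 are high in the DMSO culture alone.

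Receptor tyrosine kinases differed by member. Of 18 listed 13 were compared, with 7 at least 4-fold higher in the tumour and 1 in culture (4 and 0 after GC-centring) and a median of 2.12 (GC-centred 0.90). The shares of all genes were 24.4% and 14.1% (11.9% and 10.9% after GC-centring). Met (chr6:17413800-17523980, mm9), the receptor of hepatocyte growth factor, was at 928 and 891 FPKM in the tumours and 15.4 and 32.3 FPKM in the cultures, a difference of 5.26 (GC-centred 5.93). Pdgfra, which is also a fibroblast marker, was at 142 and 81.5 FPKM against 2.46 and 0.487 FPKM. Egfr was at 42.3 and 18.8 FPKM in the tumours, listed at 0 in the DMSO culture, with 0.0529 FPKM in the NXD30001 culture, and Fgfr1 at 308 and 355 against 6.32 and 1.51 FPKM. For these 4 receptors the tumours exceeded the cultures in both pairs. Axl, a receptor for Gas6, was abundant on both sides (1043 and 129 FPKM, difference 2.42, GC-centred 0.92). Erbb2 (1.77, GC-centred -0.49) and Erbb3 (-1.05) stayed within 4-fold, and Igf1r (-1.26) and Insr (-1.58), the receptors for insulin-like growth factor and insulin, were within 4-fold too. The culture medium contained neuregulin-β1, the ligand of the Erbb2 and Erbb3 pair.

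Growth factor ligands past 4-fold were all on the tumour side. Of 23 compared 9 were at least 4-fold higher in the tumour and none in culture, by either measure, and the median was 1.58 by both. The shares of all genes were 24.4% and 14.1% (11.9% and 10.9% after GC-centring). Hgf, the ligand of Met, stood at 27.8 FPKM in the tumour and 0.219 FPKM in culture (difference 4.23, GC-centred 6.08). Pdgfc, a ligand of Pdgfra, was at 41.4 and 0.469 FPKM, though at 26.1 and 17.9 FPKM in the treated pair, and Tgfb1 at 42.2 and 0.455 FPKM (difference 4.51, GC-centred 1.58). Gas6, the ligand of Axl, was at 21.7 FPKM in the tumour and listed at 0 in culture. Nrg1 itself was at 11.8 FPKM in the tumour and 0.788 FPKM in culture, and Igf1 at 15.2 and 1.01 FPKM. Pdgfa (128 and 119.9 FPKM) and Vegfa (158 and 71.8 FPKM), which acts on vessels, were plentiful on both sides. The macrophage, fibroblast and endothelial lists moved in the same direction, and their part in the ligand and receptor differences was not tested.

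Nf2 was read at 57.2 and 42.8 FPKM in the tumours and 15.9 and 12.5 FPKM in the cultures, with a GC-centred difference of -0.04 in the untreated pair. A level over the whole gene includes exons outside the deleted part, and in the tumours it may include Nf2 of host cells, so it does not check the deletion. Of 18 genes of merlin's relatives and the Hippo pathway all were compared. In each direction 2 were past 4-fold, against 24.4% of all genes in the tumour and 14.1% in culture. After GC-centring 0 and 2 were so, against 11.9% and 10.9%, and the median was -0.45 (GC-centred -0.58). The coactivator Yap1 was within 4-fold (-0.01), and its relative Wwtr1 (TAZ) was at 31.9 and 138 FPKM (difference -2.64, GC-centred -1.63). The kinase Lats2, which inhibits both, was at 20.8 and 34.2 FPKM and past 4-fold on the culture side only after GC-centring (-1.25 and -2.39). The DNA-binding partners divided: Tead1 was higher in culture (-2.69, GC-centred -2.21), and Tead3 and Tead2 were higher in the tumour (3.06 and 2.39), which became 0.43 and 0.13 after GC-centring. Of 18 YAP/TEAD target genes 17 were compared, of which 10 were at least 4-fold higher in the tumour and 1 in culture (5 and 2 after GC-centring), with a median of 2.41 (GC-centred 1.32). Shares of all genes were again 24.4% and 14.1% (11.9% and 10.9% after GC-centring), so the 2 on the culture side after centring are near the share of all genes. Ccn2 (connective tissue growth factor, Ctgf in the files) was at 212 FPKM in the tumour and listed at 0 in culture, and Ankrd1, a nuclear protein of stretched muscle, at 41.8 and 1.10 FPKM. Ccn1 (Cyr61 in the files), a related matrix protein, had 88.7 and 10.1 FPKM (GC-centred 1.32). Dlc1, a tumour suppressor, was higher in culture (10.0 and 40.1 FPKM). In the treated pair the median of the target list was 0.53.

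Genes of mitosis lay on the culture side in the untreated pair and on the tumour side in the treated pair. Of 24 genes of G2/M and mitosis 23 were compared. At least 4-fold higher in culture were 11 and in the tumour 1, against 14.1% and 24.4% of all genes. After GC-centring 12 and 0 were so, against 10.9% and 11.9%. The median was -1.93 (GC-centred -2.18, and 1.72 with equal totals over all rows, where that of all genes was 3.29), and 20 of the 23 were lower in the tumour. Mki67 (chr7:142881772-142907979, mm9), the antigen of dividing cells, was at 435 FPKM in the DMSO culture against 14.6, 19.4 and 10.8 FPKM in the vehicle tumour, the NXD30001 tumour and the NXD30001 culture. Cenpe, a kinetochore motor, was at 206 FPKM in the DMSO culture against 3.06, 8.07 and 11.8 FPKM in the same others. Ccna2, the cyclin of S and G2 phase, was at 433 FPKM against 44.5, 40.8 and 12.97 FPKM. For these 3 genes the DMSO culture stood alone, and the treated culture lay below both tumours for Mki67 and Ccna2 and above both for Cenpe. In the treated pair the list had a median of 1.69 with 21 of 23 genes higher in the treated tumour. The member past 4-fold on the tumour side was Cdc20, an activator of the anaphase-promoting complex (66.4 and 9.57 FPKM, difference 2.12, GC-centred 0.25). Cdk1 (Cdc2a in the files), the mitotic kinase (169 and 48.3 FPKM), and Cenpa, the centromeric histone (95.1 and 27.3 FPKM), were within 4-fold. Among 20 compared genes of G1/S and DNA replication 4 were at least 4-fold higher in culture and 1 in the tumour (2 and 0 after GC-centring). Their shares in culture were near the 14.1% and 10.9% of all genes, and the list's median was -0.59 (GC-centred -0.43). Pcna, the sliding clamp of DNA polymerase, was at 61.5 and 171 FPKM (GC-centred -1.22) and the DNA ligase Lig1 at 62.1 and 199 FPKM, while Mcm2, a subunit of the replicative helicase, was at 33.9 and 3.96 FPKM (difference 2.30, GC-centred 0.42).

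Promoters of many mitotic genes are known to hold a short element, the CHR, through which the DREAM complex and B-Myb act. It was searched as the letters TTTGAA on both strands of RefSeq promoters (GRCm38.p6, 250 bases before to 50 after the start). It was held by 15 of the 20 members of the G2/M list with a promoter there, and by 17.9% of all 32851 promoters. A member counted if any of its promoters held the letters, while the share of all promoters counts each promoter singly. The 2 shares are therefore not like for like. The windows of 60 bases that hold it are shown for 4 members, so that its place can be seen beside the levels, with matches in capitals.
Mki67 (promoter window, chr7:135716443-135716502, - strand): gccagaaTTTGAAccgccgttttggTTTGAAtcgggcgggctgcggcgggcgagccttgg
Kif11 (promoter window, chr19:37376322-37376381, + strand): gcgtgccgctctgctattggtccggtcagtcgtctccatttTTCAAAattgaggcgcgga
Top2a (promoter window, chr11:99024190-99024249, - strand): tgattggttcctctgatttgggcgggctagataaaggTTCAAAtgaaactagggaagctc
Ube2c (promoter window, chr2:164769869-164769928, + strand): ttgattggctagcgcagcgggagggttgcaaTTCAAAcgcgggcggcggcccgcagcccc
A match is a description of these letters and not a site. Kif11, the spindle motor, was at 8.85 and 71.8 FPKM in tumour and culture, Top2a, which untangles DNA, at 120.5 and 505 FPKM (difference -2.64, GC-centred -1.62), and Ube2c, a ubiquitin carrier of the anaphase-promoting complex, at 64.0 and 125 FPKM (difference -1.53, GC-centred -3.41). The median difference was -1.83 over 14 compared members with the letters and -3.38 over 5 without them.

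Among D-type cyclins and inhibitors of cyclin-dependent kinases 1 inhibitor stood far apart. Cdkn2a (chr4:88920377-88940557, mm9), which encodes p16Ink4a and p19Arf, was at 512 and 432 FPKM in the tumours and 2.08 and 1.11 FPKM in the cultures, a difference of 6.88 (GC-centred 3.96) in the untreated pair and 7.05 in the treated pair. Cdk6, a kinase that p16Ink4a inhibits, was higher in culture at 155 FPKM against 20.3 FPKM, and so was Rb1, the retinoblastoma protein (23.6 and 3.66 FPKM), whose difference of -2.90 was -1.31 after GC-centring. Ccnd1, cyclin D1, was plentiful and within 4-fold in the untreated pair (392 and 235 FPKM, difference 0.16). Of 13 genes in this list 3 were at least 4-fold higher in the tumour and 2 in culture, shares near the 24.4% and 14.1% of all genes. After GC-centring 2 and 3 of 12 were so, against 11.9% and 10.9%, and the median was 0.16 (GC-centred -0.16). The targets of p53 had a median of 0.02 (GC-centred -0.17) over 15 compared, with 5 at least 4-fold higher in the tumour and none in culture (1 and 1 after GC-centring). Phlda3, an inhibitor of Akt, led them (81.1 and 1.504 FPKM, difference 4.57, GC-centred 1.64). Cdkn1a, p21, was within 4-fold (-1.38) and was the member past 4-fold on the culture side after GC-centring (-2.88).

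Signalling readouts were mixed. Of 16 compared genes of MAPK output 4 were at least 4-fold higher in the tumour and 2 in culture, shares near the 24.4% and 14.1% of all genes. After GC-centring 0 and 2 were so, against 11.9% and 10.9%, and the median was 0.31 (GC-centred -0.53). The feedback gene Spry1 was at 32.6 and 0.730 FPKM (difference 3.87, GC-centred 1.81), and Dusp6, a phosphatase of ERK, was within 4-fold (56.8 and 10.7 FPKM). The transcription factor Etv1 (6.77 and 32.9 FPKM) and Spred1 (28.5 and 112 FPKM) were the members past 4-fold in culture, and their differences of -2.66 and -2.51 were -0.80 and -0.91 after GC-centring. The culture-side members after centring were instead Phlda1 (-2.73) and Ier3 (-2.54), whose differences were -0.094 and -1.04. In the treated pair the list's median was 3.05 and 15 of 16 members were higher in the tumour. Genes that cyclic AMP induces through CREB had a median of -0.06 (GC-centred 0.29) over 12 compared, with 4 at least 4-fold higher in the tumour and 2 in culture (2 and 2 after GC-centring). Ppargc1a, a coactivator of mitochondrial genes, was at 76.0 FPKM in the DMSO culture and 6.17 FPKM in the NXD30001 culture, against 0.127 and 0.914 FPKM in the tumours. Pde4b, a cyclic AMP phosphodiesterase, was at 37.4 and 90.2 FPKM in the cultures and 4.57 and 4.08 FPKM in the tumours. Per1, a clock gene of the same list, went the other way (50.9 and 1.34 FPKM, difference 4.01, GC-centred 1.38). Crem itself was within 4-fold (-0.85). Immediate early genes had a median of 2.05, which was 0.25 after GC-centring, with 10 of 19 at least 4-fold higher in the tumour and 1 in culture (7 and 1 after centring). Junb, Ier2 and Ier5 were listed at 0 in both cultures and at 70.7, 44.2 and 43.3 FPKM in the vehicle tumour, and Jund was at 199 FPKM in the tumour and 0.269 FPKM in culture. The GC content of Jund is 67.2% and that of Junb 62.6%, in the decile where the median gene of the DMSO culture was at 0.962 FPKM.

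Interferon-stimulated genes were higher in the tumour by both measures. Of 36 listed 35 were compared, of which 19 were at least 4-fold higher in the tumour and 1 in culture before and after GC-centring, against 24.4% and 14.1% of all genes before and 11.9% and 10.9% after. The median was 2.13 (GC-centred 2.24), and 30 of 35 were higher in the tumour. In culture 8 of the 35 were listed at 0, so the filter fixed their direction. Bst2 (tetherin), which holds virus particles on the cell surface, was at 201 and 175 FPKM in the tumours and 0.572 and 0.132 FPKM in the cultures. Isg15, a ubiquitin-like protein, was at 52.6 and 28.4 FPKM against 1.03 and 1.72 FPKM. Irf7, the factor that amplifies interferon production, was at 71.4 and 0.468 FPKM in the untreated pair. Both tumours exceeded both cultures for Bst2 and Isg15. Ifi27l2a was at 64.2 FPKM in the tumour and listed at 0 in culture. Xaf1, a gene linked to cell death, was the exception past 4-fold, with 11.6 FPKM in the tumour and 55.1 FPKM in culture, and Ifit2 (-1.005), Rsad2 (-0.50) and Cmpk2 (-0.65) were within 4-fold. The macrophage list, at 2709.9 FPKM summed in the tumour and 47.5 FPKM in culture, moved with this group, and its part was not tested.

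The interferon response element, through which interferons switch on these genes, was searched as GAAA, any 2 bases and GAAA again, on both strands of the same RefSeq promoters (GRCm38.p6). It was held by 16 of the 25 list members with a promoter there and by 3.44% of all 32851 promoters. Here too a member counted if any of its promoters matched, so these shares are not like for like. The windows of 60 bases around it are given for 6 members, with matches in capitals and overlapping matches merged. They were taken in order of difference on the tumour's side from members with a match before the start, with 1 chromosome left out.
Bst2 (promoter window, chr8:71537562-71537621, - strand): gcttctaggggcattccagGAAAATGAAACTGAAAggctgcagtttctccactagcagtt
Isg15 (promoter window, chr4:156200850-156200909, - strand): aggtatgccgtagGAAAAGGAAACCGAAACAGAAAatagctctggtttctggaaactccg
Irgm1 (promoter window, chr11:48871421-48871480, - strand): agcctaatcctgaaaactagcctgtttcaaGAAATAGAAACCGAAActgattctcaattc
Ifit3 (promoter window, chr19:34583382-34583441, + strand): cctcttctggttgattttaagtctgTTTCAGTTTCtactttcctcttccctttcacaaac
Gbp2 (promoter window, chr3:142620579-142620638, + strand): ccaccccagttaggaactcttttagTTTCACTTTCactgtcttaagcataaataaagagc
Oas1a (promoter window, chr5:120907526-120907585, - strand): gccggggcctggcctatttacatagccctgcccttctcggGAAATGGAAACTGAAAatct
The Bst2, Isg15, Irgm1 and Oas1a windows hold 2 or more overlapping matches, and those of Ifit3 and Gbp2 hold 1 match each, read on the other strand. Irgm1, a GTPase that acts on phagosomes, was at 38.7 and 1.05 FPKM, Ifit3, which blocks viral RNA, at 14.4 and 0.0925 FPKM, Gbp2, a guanylate-binding protein, at 31.0 and 1.23 FPKM, and Oas1a, a sensor of double-stranded RNA, at 9.06 FPKM and 0. The median difference was 2.08 over 16 compared members with the letters, 9 of them at least 4-fold higher in the tumour, and 1.46 over 8 without them, 3 of them at least 4-fold higher.

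Antigen presentation and chemokine genes lay on the same side. The shares of all genes were 24.4% at least 4-fold higher in the tumour and 14.1% in culture (11.9% and 10.9% after GC-centring). Of 14 compared genes of the MHC class I route 10 were at least 4-fold higher in the tumour and none in culture, with a median of 2.90. After GC-centring, which was possible for 12, 5 were at least 4-fold higher in the tumour and 2 in culture, and the median was 1.70. Psmb8, a subunit of the immunoproteasome, was at 88.4 and 0.265 FPKM and Tap2, a chain of the peptide transporter, at 79.6 and 0.499 FPKM. Of the heavy chains, H2-D1 was at 256 and 19.3 FPKM (difference 3.09, GC-centred 1.22) and H2-K1 at 192 and 166 FPKM (difference -0.37, GC-centred -2.43), the latter being past 4-fold on the culture side after centring. Of 11 class II genes 8 were compared. At least 4-fold higher in the tumour were 6 (4 after GC-centring), with a median of 2.55 (GC-centred 1.61). In culture 7 of the 8 were listed at 0, so the filter fixed their direction. Among them were Cd74, the invariant chain (31.3 FPKM in the vehicle tumour and 4.65 FPKM in the NXD30001 tumour), and Ctss, the cathepsin that cleaves it (160.0 and 126 FPKM). Of 28 chemokines and cytokines 20 were compared, and 8 were under 1 FPKM on both sides. All 20 were higher in the tumour, 11 of them at least 4-fold (13 after GC-centring), with a median of 2.61 (GC-centred 2.65). Among the 20, 8 were listed at 0 in culture. These passed the filter through the tumour's level alone, so their direction was fixed by it. Ccl9 was at 128 FPKM in the tumour and 0.417 FPKM in culture, Ccl6 at 117 FPKM and 0, and Cxcl12, which draws leukocytes and endothelial cells, at 149.8 and 1.55 FPKM. Ccl2, which draws monocytes, and Csf1, the ligand of Csf1r, were within 4-fold (30.05 and 18.9 FPKM, and 78.8 and 16.6 FPKM). Of 14 compared complement genes 11 were at least 4-fold higher in the tumour by either measure, with a median of 3.99 (GC-centred 3.46). In culture 8 of the 14 were listed at 0, so the filter fixed their direction. Besides the C1q chains the 11 included Cfp, properdin (63.1 and 0.600 FPKM), and the receptor C3ar1 (21.8 and 0.178 FPKM). The C1q chains are also members of the macrophage list, whose part in these groups was not tested.

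**Figure D4:**
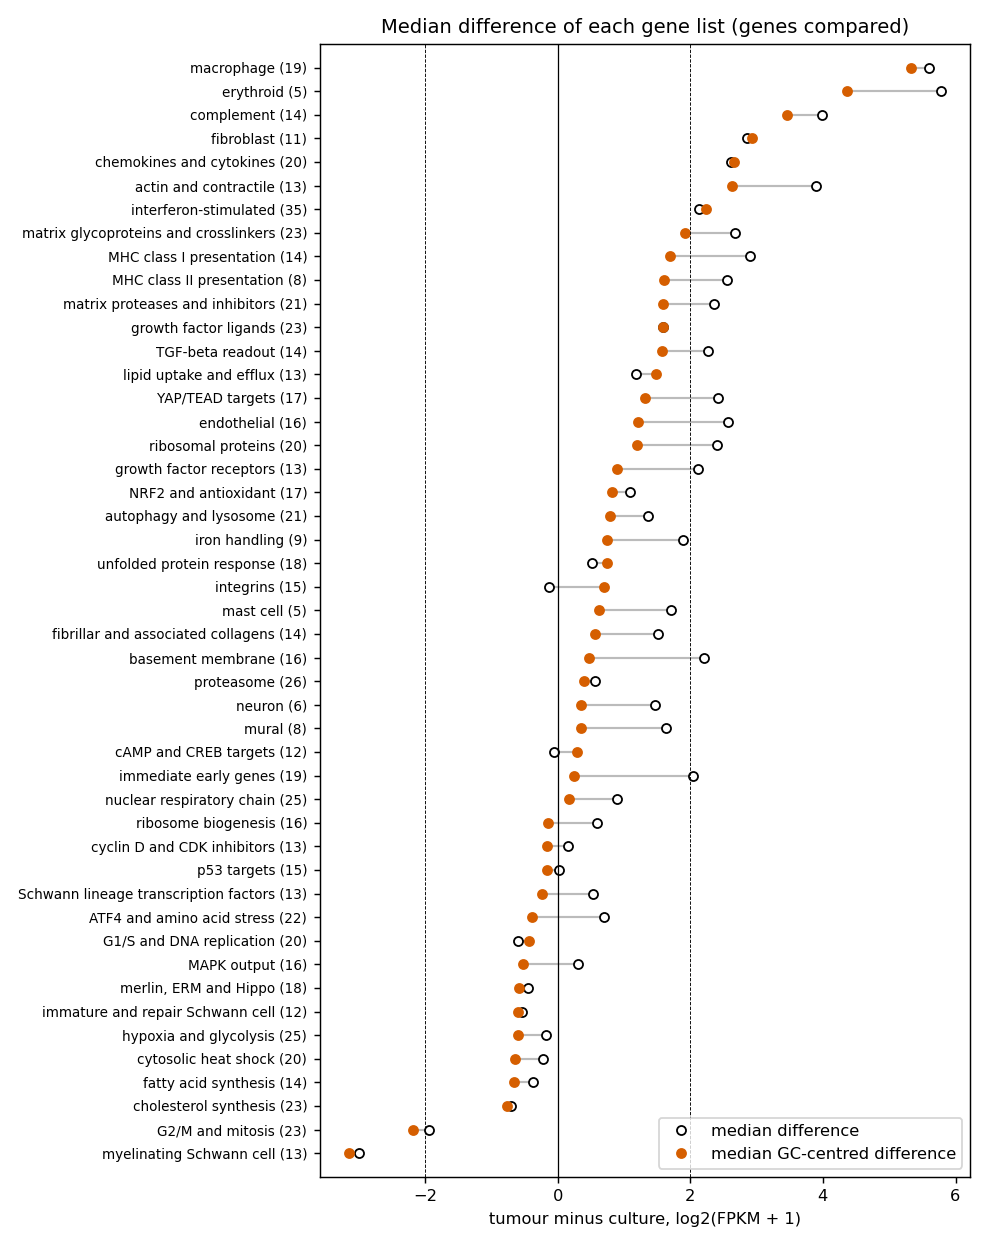
Median difference of each gene list with 5 or more compared genes, tumour minus culture on the log2(FPKM + 1) scale, with the number of compared genes in brackets. Open circles are the median difference, filled circles the median GC-centred difference, and dashed lines mark 4-fold. The macrophage list is at 5.59 and 5.32, the interferon-stimulated list at 2.13 and 2.24 and the myelinating list at -2.997 and -3.14, while the immediate early and basement membrane lists move from above 2 to below 0.5.

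Matrix genes differed by class. As a background, 24.4% of all genes were at least 4-fold higher in the tumour and 14.1% in culture (11.9% and 10.9% after GC-centring). Of 23 compared matrix glycoproteins and crosslinkers 14 were at least 4-fold higher in the tumour and none in culture (11 and 2 after GC-centring), with a median of 2.68 (GC-centred 1.91). Bgn (biglycan, chrX:70728941-70741272, mm9) had the highest difference of all ranked genes, with 1693 FPKM in the vehicle tumour, 487 FPKM in the NXD30001 tumour and 0 in both cultures. Fn1, fibronectin, was at 1596 and 659.6 FPKM in the tumours and 12.6 and 0.437 FPKM in the cultures, and Spp1, osteopontin, at 734 and 415 against 7.28 and 6.80 FPKM. The tumours exceeded the cultures in both pairs for these 3 genes. Sparc (1746 and 3339.6 FPKM) and Tnc, tenascin C (99.4 and 239.6 FPKM), were abundant on both sides and past 4-fold in culture's direction only after GC-centring (-2.65 and -2.97). In the basement membrane list 8 of 16 compared genes were at least 4-fold higher in the tumour and 3 in culture, and after GC-centring 1 and 5, with a median of 2.20 that became 0.47. The members on the culture side were Lama2, the laminin chain of the Schwann cell basal lamina (6.41 and 89.9 FPKM), Nid1, which links laminin to collagen IV (139 and 837 FPKM), and Lama4 (32.8 and 104 FPKM), and their GC-centred differences were -3.85, -3.57 and -2.46. Col18a1 alone stayed past 4-fold in the tumour's direction (119 and 0.121 FPKM, GC-centred 3.49), while the collagen IV chains Col4a1 and Col4a2 went from 3.01 and 3.52 to 0.75 and 0.60. Of 14 compared fibrillar and associated collagens 6 were at least 4-fold higher in the tumour and 2 in culture (3 and 3 after GC-centring), with a median of 1.52 (GC-centred 0.57). Col6a3 (104 and 0.557 FPKM) and Col12a1 (102 and 0.525 FPKM) led on the tumour's side and Col8a1 (49.8 and 279.7 FPKM) on the other.

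Proteases and contractile genes lay mostly on the tumour side and integrins on both. As a background, 24.4% of all genes were at least 4-fold higher in the tumour and 14.1% in culture (11.9% and 10.9% after GC-centring). Of 21 compared matrix proteases and inhibitors 11 were at least 4-fold higher in the tumour and 1 in culture (10 and 1 after GC-centring), with a median of 2.37 (GC-centred 1.59). Mmp14, a membrane-bound collagenase, was at 134 FPKM in the tumour and listed at 0 in culture, and Mmp9, a gelatinase, at 90.2 and 0.116 FPKM. Adamts4, which cleaves aggrecan and versican, was higher in culture (18.7 and 84.6 FPKM). Integrins had a median of -0.12 (GC-centred 0.69) over 15 compared, with 6 at least 4-fold higher in the tumour and 3 in culture (4 and 3 after GC-centring). The laminin receptor chain Itga6 (43.9 and 194 FPKM) and Itgb8, whose integrin activates latent TGF-β (2.38 and 42.4 FPKM), were on the culture side, and Itga3 (111 and 0.516 FPKM) and Itgb5 (199 and 2.80 FPKM) on the tumour side. The shared β1 chain Itgb1 was within 4-fold (419 and 305 FPKM). Of 13 compared actin-binding and contractile genes 8 were at least 4-fold higher in the tumour and none in culture, by either measure, with a median of 3.90 (GC-centred 2.63). Tpm2, a tropomyosin, was at 277 and 0.240 FPKM, Flna, an actin crosslinker, at 1447 and 64.0 FPKM, and Tagln, transgelin, at 143 FPKM and 0, whereas Tpm4 was within 4-fold (-1.78). Of 14 genes that TGF-β induces or uses 8 were at least 4-fold higher in the tumour and none in culture (4 and 0 after GC-centring), with a median of 2.27 (GC-centred 1.57), Pmepa1, a feedback inhibitor of the pathway, among them (112 and 0.722 FPKM). The fibroblast and mural lists, summed at 4217 and 218 FPKM in the tumour and 1295 and 35.5 FPKM in culture, moved with these groups, and their part was not tested.

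Metabolic groups had medians between -0.70 and 1.18. Their counts stand against 24.4% of all genes at least 4-fold higher in the tumour and 14.1% in culture (11.9% and 10.9% after GC-centring). Of 23 compared genes of cholesterol synthesis 6 were at least 4-fold higher in culture and 3 in the tumour (5 and 0 after GC-centring), with a median of -0.70 (GC-centred -0.77). Nsdhl (16.8 and 87.5 FPKM) and Fdft1, squalene synthase (32.6 and 105 FPKM), were on the culture side and Mvk, mevalonate kinase (47.5 and 1.18 FPKM, GC-centred 1.39), on the other. The desaturase Scd2 (153 and 748 FPKM) and the elongase Elovl6 (9.13 and 50.9 FPKM, GC-centred -1.89) were higher in culture in a fatty acid list of 14, of which 2 were at least 4-fold higher in the tumour and 3 in culture (0 and 3 after GC-centring), with a median of -0.37 (GC-centred -0.66). Lipid uptake and efflux genes went the other way, with 6 of 13 at least 4-fold higher in the tumour and none in culture by either measure and a median of 1.18 (GC-centred 1.48). Apoe was at 873 and 1346 FPKM in the tumours and 0.164 and 1.24 FPKM in the cultures, and the scavenger receptor Msr1, a gene of macrophages, at 46.2 FPKM in the tumour and 0 in culture. Among 25 hypoxia and glycolysis genes the median was -0.18 (GC-centred -0.60), with 5 at least 4-fold higher in the tumour and 2 in culture, smaller shares than the 24.4% and 14.1% of all genes, and 1 and 7 after GC-centring, against 11.9% and 10.9%. Car9, a carbonic anhydrase induced by low oxygen, was at 37.0 and 0.686 FPKM, while Ero1l, an oxidase of the endoplasmic reticulum, was at 53.8 and 1363 FPKM and Gapdh at 142 and 2283 FPKM. Members of this list thus differed in direction, and Vegfa (0.55) and Slc2a1, the glucose transporter (-0.18), were within 4-fold. The letters ACGTG, the core that the hypoxia-inducible factors bind, were in any promoter of 19 of the 24 members with one, on either strand. Of all promoters, counted singly, 19.6% held them. The median difference was -0.25 over the 19 with the letters and 1.71 over the 5 without. For cholesterol synthesis the letters TCACNCCAC, a form of the sterol regulatory element, were in any promoter of 1 of 17 members with one. Of all promoters, counted singly, 1.24% held them. Of 25 compared nuclear genes of the respiratory chain 3 were at least 4-fold higher in the tumour and none in culture by either measure, with a median of 0.90 (GC-centred 0.17).

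Genes of protein synthesis and folding differed from member to member. Counts in these lists stand against 24.4% of all genes at least 4-fold higher in the tumour and 14.1% in culture. After GC-centring the shares of all genes were 11.9% and 10.9%. Of 20 ribosomal protein genes 10 were at least 4-fold higher in the tumour and none in culture (7 and 1 after GC-centring), with a median of 2.40 (GC-centred 1.196). Rplp1 was at 1631 FPKM in the tumour and 14.7 FPKM in culture, but Rps6 was at 292 and 764 FPKM (difference -1.97, GC-centred -2.23), although both are parts of every ribosome. Their transcripts have a GC content of 57.3% and 50.0%. Npm1 (292 and 3648 FPKM) and Ncl (253 and 1354 FPKM, GC-centred -1.74), nucleolar proteins, were higher in culture, and Bop1 (51.9 and 0.716 FPKM), also of the nucleolus, was higher in the tumour. They belong to a list of 16 genes of ribosome biogenesis, of which 4 were at least 4-fold higher in the tumour and 6 in culture (1 and 2 after GC-centring), with a median of 0.59 (GC-centred -0.15). The 26 proteasome subunits had a median of 0.57 (GC-centred 0.39), with 4 at least 4-fold higher in the tumour and 1 in culture (1 and 1 after GC-centring). The unfolded protein response list had 5 of 18 at least 4-fold higher in the tumour and 1 in culture (3 and 0 after GC-centring) and a median of 0.52 (GC-centred 0.75). In it Herpud1 (44.3 and 1.28 FPKM) was higher in the tumour and the chaperone Hsp90b1 (774 and 2560.0 FPKM, GC-centred -1.29) in culture. Of 22 compared genes of the ATF4 response 4 were at least 4-fold higher in the tumour and 2 in culture (1 and 3 after GC-centring), with a median of 0.70 (GC-centred -0.38). In it Phgdh (112 and 3.26 FPKM, GC-centred 1.95) and Psat1 (123 and 725 FPKM), neighbouring enzymes of serine synthesis, lay on opposite sides. Of 20 cytosolic heat shock genes 2 were past 4-fold in each direction (0 and 1 of 18 after GC-centring), with a median of -0.21 (GC-centred -0.64). Hspa1a, which has no GC value here, was at 23.2 FPKM in the tumour and 0.0605 FPKM in culture, whereas Hsp90aa1 (-1.40) and Hsp90ab1 (-1.19), the cytosolic HSP90 genes, were within 4-fold. Of 17 antioxidant genes 5 were at least 4-fold higher in the tumour, a share near the 24.4% of all genes, and 1 in culture (4 and 2 after GC-centring), with a median of 1.09 (GC-centred 0.82). Among them Gpx4, which protects membrane lipids, was higher in the tumour (817 and 37.3 FPKM, GC-centred 0.91) and Sod1 in culture (98.3 and 818 FPKM, GC-centred -4.89). Of 9 compared genes of iron handling 4 were at least 4-fold higher in the tumour and none in culture (3 and 0 after GC-centring), with a median of 1.89 (GC-centred 0.75), and Ftl1, the ferritin light chain, was at 1280.2 and 48.1 FPKM (difference 4.13, GC-centred 1.87). Of 21 genes of autophagy and lysosomes 7 were at least 4-fold higher in the tumour, with a median of 1.37 (GC-centred 0.79), and none was so after GC-centring.

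Apart from the lists, 7102 genes with an own locus and an ordinary symbol were ranked. Below Bgn the highest differences were those of Plac8, a small cysteine-rich protein (1019 FPKM in the tumour, listed at 0 in culture), Apoe and Lyz2. Krt8, a keratin of simple epithelia, was at 374 and 61.1 FPKM in the tumours and listed at 0 in both cultures. Msln, mesothelin, a surface protein of mesothelium, was at 452 and 564 FPKM in the tumours and 0.324 and 0.623 FPKM in the cultures. Markers of epithelium or mesothelium other than keratinocyte genes were not listed, and the cells that carried Krt8 and Msln are not known from these data. After GC-centring Plac8, Dcn, Bgn and Lyz2 led, followed by Prl2c3 and Prl2c2, near-identical copies of a prolactin family gene at 145 and 159 FPKM in the tumour and 0.0596 and 0.195 FPKM in culture, between which reads may have been divided. F13a1, a coagulation factor subunit that macrophages make (163 FPKM and 0), and Grem1, an antagonist of bone morphogenetic proteins (96.7 FPKM and 0), came next among genes not yet named. At the other end stood Hist1h4d (chr13:23673437-23673859, mm9), a replication-dependent histone H4 gene, with 0.556 FPKM in the tumour, 1.87 FPKM in the NXD30001 tumour, 447 FPKM in the DMSO culture and 66.8 FPKM in the NXD30001 culture. Histone H4 genes are near copies of each other, so the division of reads among them is uncertain. Igfbp5, a binding protein of insulin-like growth factors, was at 2.69 and 3.88 FPKM in the tumours and 331 and 71.1 FPKM in the cultures. Lpar4, a receptor for lysophosphatidic acid (0.530 and 146 FPKM), Gnai1, an inhibitory G protein (0.911 and 147 FPKM), and Peg3, an imprinted gene (7.34 and 386 FPKM), were also among the 15 lowest. Ncaph, a subunit of condensin, was at 17.9 and 885 FPKM. After GC-centring Hist1h4d and Igfbp5 were again at the low end, and Kif1a, a kinesin of axons (0.0803 and 15.9 FPKM), Ptgds, prostaglandin D synthase (0 and 12 FPKM), and Mycn, a transcription factor (3.75 and 64.0 FPKM), joined the 15 lowest. The neuropeptide gene Nps was at 65.5 FPKM in the DMSO culture and listed at 0 in the other 3 libraries.

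The most abundant ranked transcripts were partly shared. Lgals1, a galectin of mesenchymal cells, led in the vehicle tumour with 7040.4 FPKM and had 355 FPKM in culture. Vim, the intermediate filament vimentin, was within 4-fold at 5664 and 5129.8 FPKM, and Actb, β-actin, was at 3808 and 330.5 FPKM. In culture Cox7b, a subunit of cytochrome oxidase, led with 6706 FPKM against 1129 FPKM in the tumour (difference -3.15, GC-centred -1.90). Pabpc1, which binds poly(A) tails, was at 4454 and 775 FPKM and Sparc at 3339.6 and 1746 FPKM.

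The treated pair of libraries gave a second reading of tumour against culture. Of the 3723 genes at least 4-fold higher in the untreated tumour 3518 were higher in the treated tumour than in the treated culture and 2522 were at least 4-fold so. Of the 2145 on the culture side 1832 and 1171 were. At least 4-fold differences of opposite sign in the pairs were found for 73 genes. Over all 14981 genes compared in the treated pair the median was 0.62. Of these, 3603 were at least 4-fold higher in the tumour and 1978 in culture. Both pairs had a similar correlation with GC content (0.63 and 0.61), and agreement after GC-centring was not counted. The pairs come from the same deposited tables and share no library, and NXD30001 was given at different doses and times on each side. Macrophage markers (median 4.46), interferon-stimulated genes (1.66) and matrix glycoproteins (2.17) had the same sign in both pairs. The 13 members of the myelinating list compared in the untreated pair were at -1.14 but divided, with 6 higher in the treated tumour and 7 in the treated culture. Drp2, Cldn19 and Fa2h, left out by the untreated filter, were also higher in the treated culture. The erythroid list, which had 5 compared genes and a median of 5.78 in the untreated pair, was at 0.17.

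Of the named genes with a GC value 154 were past 4-fold in the untreated pair, of which 122 remained so in the same direction after GC-centring and 32 did not, and 14 were past 4-fold only after it. Reads of overlapping genes may have been divided between them, and 57 of the 207 genes named here have the same locus in the files as another gene, so that their levels are less certain: Bop1, Car9, Ccl6, Ccna2, Ccnd1, Cdc20, Cdh2, Col12a1, Col18a1, Col4a1, Col4a2, Ctgf, Ctss, Dusp6, Egfr, Erbb2, Fgfr1, Fn1, Ftl1, Hsp90b1, Hspa1a, Igf1, Insr, Irf7, Itga6, Itgb1, Jun, Jund, Kif11, Lama2, Lats2, Lig1, Mbp, Mertk, Mitf, Mmp14, Ncam1, Ncl, Pdgfa, Pdgfc, Pecam1, Ppargc1a, Prx, Rb1, Slc2a1, Syp, Tagln, Tap2, Tead1, Tead2, Tnc, Top2a, Tpm4, Ube2c, Wwtr1, Yap1 and Zbtb46.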

How the data were processed

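Levels of 2 deposited tables were used, each comparing a treated with an untreated library. Per the submitters' processing notes, reads were handled with CASAVA, TopHat 1.2.0, Cufflinks 1.0.2 and Cuffdiff on mouse build mm9, and no source used here gives the use of strand. The authors deposited a level per gene in FPKM, a fold change as a natural log and a test statistic (a score) per gene. The last 2 served only to derive the authors' implied error. FPKM values do not give the depth of a library, so no counting interval was computed. Locus starts count from 0 in the files, since among 19955 loci of 1 row with a length in GENCODE M21 the end minus the start equalled that length for 10580 and the length less 1 for 268, and they are printed counting from 1.

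Rows were joined by Ensembl identifier, 34260 being OK in both tables. The columns were rescaled to the same upper quartile (43.6 FPKM in the tumour and 29.1 FPKM in culture before rescaling), and the pseudocount was 1. GC content came from the longest coding transcript in GENCODE M21 by gene identifier, and 1045 compared genes had no value. Of 962 entries in 58 gene lists, 953 matched by symbol, 6 by identifier and 3 not at all. Listed members were named by a rule: up to 6 per list with the highest absolute difference, the defining markers, the 15 highest and 15 lowest ranked genes and the 10 most abundant in each library. Members outside the rule were chosen after their values were seen. Some members that the rule selects are not reported here. The members and lists were chosen with earlier results of these data known. No test was run, as each group has 1 sample. The computation was tested on simulated data with known changes. Other scalings, pseudocounts, minimum levels and thresholds, and the treated pair, were tried as alternatives, as was GC-centring, added after seeing the data. Python 3.11.15, numpy 2.4.6, pandas 2.3.3, scipy 1.17.1 and matplotlib 3.10.9 were used. Promoters are those of RefSeq on GRCm38.p6.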

Additional observations from a re-analysis of the deposited data

Results flagged for a closer look

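For 3 listed genes the difference was at least 4-fold in both pairs of libraries and opposite in direction. Egr2, the factor that drives myelin genes, had a difference of -2.997 in the untreated pair and 2.11 in the treated pair. Etv1, a transcription factor of the MAPK output list, had -2.66 and 2.29. Col28a1, a collagen of the nerve sheath, had -2.40 and 2.77. With 1 library in each group the difference between the pairs was not tested.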

How the results depend on the processing

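Each setting was changed alone. Median ratios, the upper quartile of all values above 0, a minimum of 5 FPKM, no minimum, protein-coding totals and the treated pair left both counts of genes past 4-fold within 1.5 times of 3723 and 2145. With no rescaling the counts were 4644 and 1436, and 76.4% of the genes past 4-fold were then higher in the tumour, against 63.4%. A pseudocount of 5 gave 1849 and 1405 genes, and leaving out genes at shared loci 2360 and 1313. Thresholds of 2-fold gave 6323 and 4305 genes and of 8-fold 1887 and 944. Equal totals over all rows gave 11454 and 278 genes, 97.6% of them higher in the tumour, and a median of 3.29 over all genes, and the myelinating list's median was 0.12. The following alternatives were chosen after seeing the data. GC-centring gave 1687 genes higher in the tumour (52.2% of those past 4-fold), GC- and length-centring 1607 (50.3%), and protein-coding genes alone 1429 higher in culture. Of 47 list medians 22 moved by less than 0.54 under GC-centring and 47 under median ratios. Among 207 named genes the following called differences changed sign. Under equal totals over all rows these were Adamts4 0.93, Btc 0.57, Cdk6 0.20, Col8a1 0.64, Cox7b 0.56, Dlc1 1.07, Elovl6 0.62, Etv1 0.80, Fdft1 1.42, Hsp90b1 1.40, Itga6 0.98, Kif11 0.11, Lama4 1.45, Lig1 1.44, Mertk 1.25, Ncl 0.71, Nid1 0.54, Nsdhl 0.73, Pabpc1 0.61, Pcna 1.64, Pde4b 0.0919, Pmp22 0.12, Psat1 0.57, Rb1 0.40, Scd2 0.84, Sod1 0.0745, Spred1 1.14, Tead1 0.98, Top2a 1.06, Wwtr1 1.01 and Xaf1 0.85. In the treated pair they were Btc 0.26, Ccna2 0.80, Egr2 2.11, Etv1 2.29, Gjc3 0.65, Kif11 0.14, Lig1 0.0621, Mertk 1.00, Mki67 0.0299, Pdgfc -0.26, Top2a 1.22 and Xaf1 0.51. Under GC-centring they were Artn -0.53 and Foxd3 -0.89, and under GC- and length-centring Artn -0.56 and Foxd3 -0.91. The scale factor alone accounts for the changes under equal totals, and for the others the cause was not tested. No replicate could be left out, since each group has 1 library. No paired analysis was possible because each group has 1 library, so a block by replicate number has no residual degrees of freedom. The FPKM values hold no read counts, so depth limits could not be computed, and the authors' implied error at 1 to 3 FPKM was 0.90.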
